A study of Homo sapiens with 8 samples.

Results

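The 10 receptors described here are members of the tumour necrosis factor (TNF) receptor superfamily, measured in U87 cells, a human glioblastoma line, with and without knockdown of RND3. They were taken by gene symbol: TNFRSF1A, TNFRSF1B, TNFRSF10A, TNFRSF10B, TNFRSF10D, TNFRSF11B, TNFRSF12A, TNFRSF21, FAS and LTBR. They are 10 of the 19483 genes named on the array, and 13 of its 42405 probes. All 13 probes were well above background on all 8 arrays, so the filter on dim probes removed none of them. Expression was read on one-colour Agilent arrays in 4 groups of the same cells. The labels give times of 24 h and 48 h without saying what they were counted from. At 24 h there were 3 arrays of cells given a non-silencing siRNA (siControl) and 3 of cells given siRNA against RND3 (siRND3). At 48 h there was 1 array of each. All groups received siRNA with a lipid reagent, so untransfected cells are not part of the comparison.

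The design asked what loss of RND3 did to the transcriptome of a glioma line. The knockdown was transient, in 1 cell line. The methods name more than a single siRNA against RND3, and the labels do not say which of them each array received. The labels also do not say whether arrays of a group came from separate transfections, so p-values measure only the spread between these arrays, which may be technical.

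TNF receptors are type I membrane proteins that bind trimeric ligands of the TNF superfamily. Some carry a death domain in their cytoplasmic tail, which recruits FADD or TRADD and can lead to caspase activation. The others bind TRAF proteins and signal mainly to NF-kB and MAP kinases, and the death domain receptors can do so too. A further class consists of decoys, which bind a ligand without passing on a death signal. Glioma cells express several of these receptors, and the balance between death signals and NF-kB signals downstream of them is much studied in this tumour. The results below are ordered by these classes.

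The targeted gene checked the labels. RND3 read 11.90 ± 0.01 (SD, n = 3) in siControl and 10.24 ± 0.16 in siRND3 cells at 24 h on the log2 intensity scale, so its level was 31.7% of control. At 48 h it was 31.9% of control, with 1 array a group. Of the 9 glial and U87 marker genes, 5 (VIM, NES, CD44, FN1 and SOX9) were well above background on all 8 arrays. OLIG2 was so on 7 arrays and S100B on 1, whereas GFAP and SOX2 were on none. Replicate arrays correlated at r = 0.988 to 0.991 within groups at 24 h, and at 0.985 to 0.988 between the groups. All 8 arrays lay on 1 slide, with siRND3 in row 1 and siControl in row 2, so the row on the slide and the treatment cannot be told apart. Levels are given below as log2 intensity, and a difference of -1 on this scale is a fall to 50% of control. A gene was called when limma put at least 1 of its probes under an adjusted p of 0.05 and no probe opposed it.

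At 24 h, 2 of the 10 receptors fell with RND3 knockdown and none rose. These were TNFRSF1B (TNFR2), the TNF receptor without a death domain, and TNFRSF21 (DR6), a death domain receptor. The background was 9.26% of 14805 genes called lower and 7.16% called higher. At an unadjusted p under 0.05 the counts were 4 lower and 0 higher, against 16.6% and 19.7% of all genes. SAM, the test named in the methods, called 2 lower and 0 higher, against 10.6% and 6.82% of all genes. By sign alone 11 of the 13 probes were lower in siRND3 cells, against 41.3% of all probes tested. The groups did not overlap on 5 of the 13 probes, each with siRND3 lower (14.0% of all probes tested), and on none with siRND3 higher (20.3%). The median difference over the 10 genes was -0.12, while that over all genes was 0.04. In a population of cells, fewer cells expressing a receptor and less RNA per cell cannot be told apart.

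**Figure D1:**
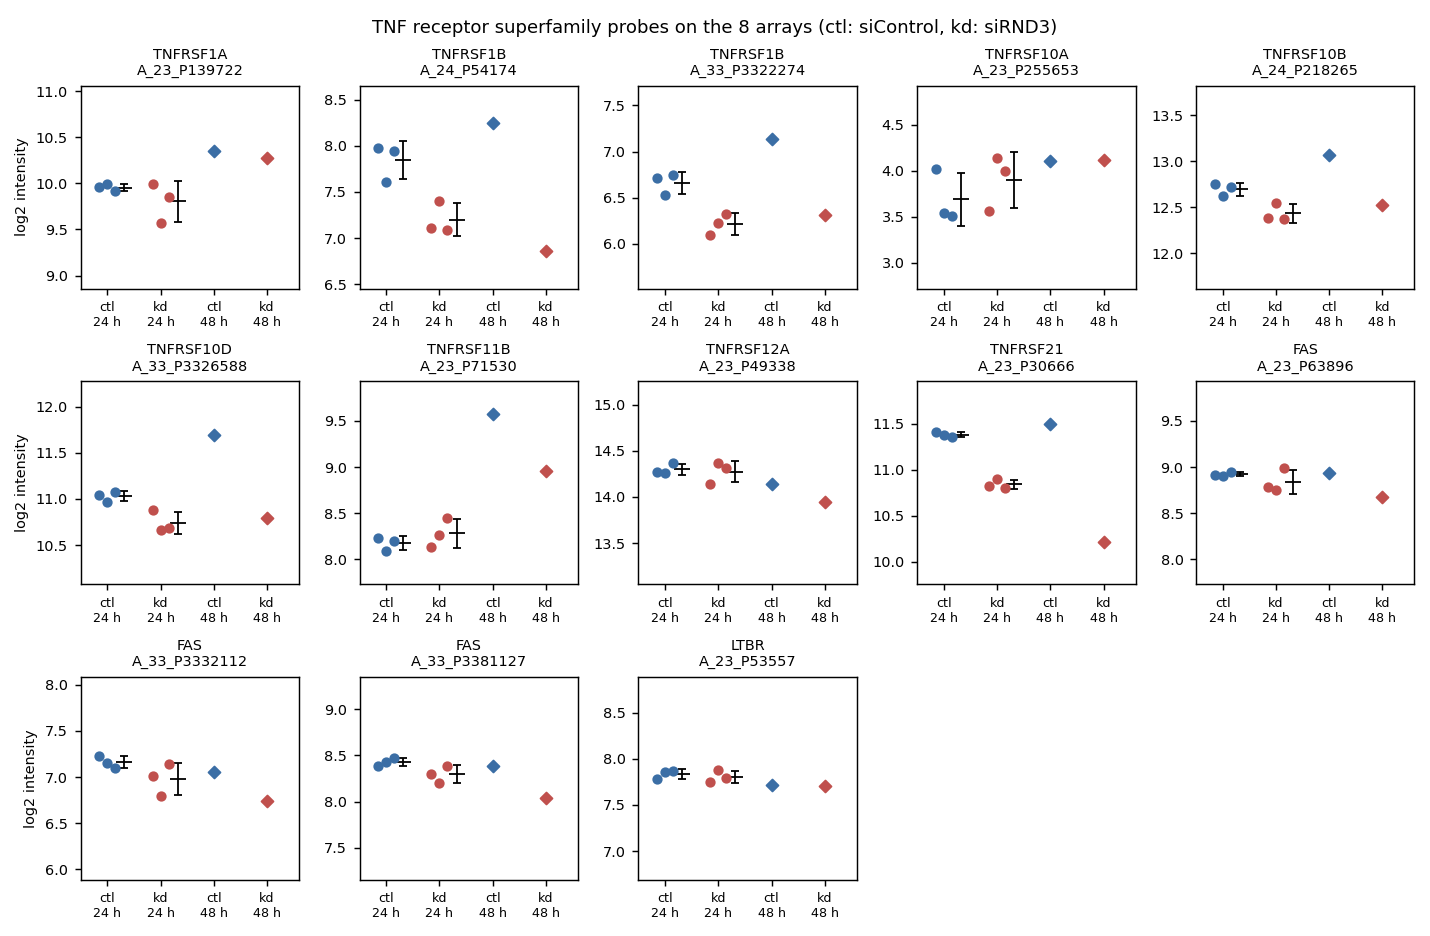
Log2 intensity of each of the 13 receptor probes on the 8 arrays, with siControl in blue and siRND3 in red, circles for 24 h and diamonds for the single arrays at 48 h. Horizontal ticks with bars are the mean ± SD of 3 arrays, and every panel spans the same log2 range, placed at that probe's own level. The siRND3 circles lie wholly below the siControl circles in 5 panels, those of TNFRSF1B (both probes), TNFRSF10B, TNFRSF10D and TNFRSF21.

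TNFRSF21 gave the most even difference between the groups. It read 11.41, 11.38 and 11.36 in the siControl arrays and 10.82, 10.90 and 10.80 in the siRND3 arrays at 24 h. The 2 groups were separated by 0.46, far more than the spread within either. The difference was -0.54 (SE 0.07, adjusted p = 0.00537), or 68.7% of control. The call was kept under all 16 alternatives tried, with differences between -0.57 and -0.50. Not all of these could have differed. The filters, the replicate block, SAM and probe means cannot move the difference of a single-probe gene. Fitting all 8 arrays together repeated the 24 h fit.

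TNFRSF1B was read by a pair of probes of the same transcript. Probe A_24_P54174 read 7.98, 7.61 and 7.94 in siControl and 7.11, 7.40 and 7.08 in siRND3 cells. Probe A_33_P3322274 read 6.71, 6.53 and 6.74 in siControl and 6.09, 6.23 and 6.32 in siRND3 cells. On both probes every siRND3 array was below every siControl array, with a gap of 0.20 between the groups. The differences were -0.64 (SE 0.14, adjusted p = 0.0323) and -0.45 (SE 0.10, adjusted p = 0.0351), or 64.1% and 73.4% of control. This call depended on single arrays. Without siControl array 1 the differences were -0.57 and -0.42 (adjusted p = 0.103 and 0.115). Without siControl array 3 they were -0.59 and -0.40 (adjusted p = 0.110 and 0.126), and without siRND3 array 1 they were -0.60 and -0.38 (adjusted p = 0.0796 and 0.0750), so neither probe passed in those fits. The difference of the second probe shrank to -0.23 after normexp background correction (adjusted p = 0.0760), a shift of more than 1.5 times, and was -0.30 in the log2 values the authors deposited (adjusted p = 0.0798).

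The 250 bases before the annotated start of these genes are shown for the receptors called at 24 h, TNFRSF1B and TNFRSF21, and for TNFRSF1A, the other TNF receptor, which was not called. They come from RefSeq on GRCh38.p14 and are written 5′ to 3′ on the gene's own strand. Capitals mark matches to the GC box GGGCGG on either strand, here both read as the reverse complement CCGCCC, and overlapping matches were counted.
TNFRSF1B (chr1:12166741-12166990, plus strand): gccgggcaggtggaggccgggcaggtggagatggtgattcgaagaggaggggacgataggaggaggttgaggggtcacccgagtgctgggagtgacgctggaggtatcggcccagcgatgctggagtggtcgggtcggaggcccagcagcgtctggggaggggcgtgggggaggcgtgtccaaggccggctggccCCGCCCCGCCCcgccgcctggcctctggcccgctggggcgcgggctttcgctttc
TNFRSF21 (chr6:47309906-47310155, minus strand): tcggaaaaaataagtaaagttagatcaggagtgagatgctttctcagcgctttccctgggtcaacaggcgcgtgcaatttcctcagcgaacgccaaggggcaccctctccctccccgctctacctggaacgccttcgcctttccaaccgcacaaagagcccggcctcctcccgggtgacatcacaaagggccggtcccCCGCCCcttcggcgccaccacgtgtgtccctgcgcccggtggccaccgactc
TNFRSF1A (chr12:6342077-6342326, minus strand): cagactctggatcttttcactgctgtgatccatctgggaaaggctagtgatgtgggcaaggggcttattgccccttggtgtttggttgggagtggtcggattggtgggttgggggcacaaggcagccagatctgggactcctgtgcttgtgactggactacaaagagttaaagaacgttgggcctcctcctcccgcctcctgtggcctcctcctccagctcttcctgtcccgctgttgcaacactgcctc
TNFRSF1B held 2 overlapping GC boxes, starting 55 and 50 bases before the start, and TNFRSF21 held 1 at 52 bases. TNFRSF1A held none. Entries were matched for 5 of the 10 receptors (TNFRSF1A, TNFRSF1B, TNFRSF21, FAS and LTBR). The GC box was found in 4 of these 5, against 42.6% of 35116 promoters of the same length. The AP-1 motif TGANTCA was in 1 of 5 (FAS; 6.57% of all promoters) and the NF-kB consensus in 0 of 5 (9.96%). A match here is a run of letters and not evidence of binding.

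Among the other death domain receptors, none was called at 24 h. TNFRSF1A (TNFR1), the main receptor for soluble TNF, read 9.96, 9.99 and 9.92 in siControl and 9.99, 9.56 and 9.85 in siRND3 cells. The groups overlapped, since siRND3 array 1 was level with the controls, and the difference was -0.15 (95% interval -0.44 to 0.13, adjusted p = 0.460). It was -0.03 without siRND3 array 2 and -0.25 without siRND3 array 1. FAS, the receptor for FAS ligand, was read by 3 probes with differences of -0.08, -0.18 and -0.13 (adjusted p = 0.586, 0.314 and 0.353). Without siRND3 array 2 the last 2 were -0.09 and -0.08. Its groups overlapped on all 3 probes.

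TNFRSF10A and TNFRSF10B (DR4 and DR5) are the death receptors for TRAIL, and TNFRSF10D (DcR2) is a TRAIL decoy with a truncated death domain. TNFRSF10B read 12.76, 12.62 and 12.72 in siControl and 12.38, 12.55 and 12.37 in siRND3 cells. TNFRSF10D read 11.05, 10.97 and 11.07 in siControl and 10.88, 10.66 and 10.68 in siRND3 cells. Neither receptor's groups overlapped, with gaps of 0.07 and 0.09. The differences were -0.26 (SE 0.08, adjusted p = 0.0968) and -0.29 (SE 0.09, adjusted p = 0.0830), which missed the threshold. Both passed after normexp correction, at -0.26 (adjusted p = 0.0330) and -0.29 (adjusted p = 0.0364). TNFRSF10A read 4.02, 3.54 and 3.50 in siControl and 3.56, 4.14 and 3.99 in siRND3 cells. These levels sit at about the 5th percentile of probes well above background, which lay between 3.86 and 4.16 on the 8 arrays. Its difference was 0.21, with a 95% interval from -0.27 to 0.69 (adjusted p = 0.547), and it ran from 0.06 to 0.38 over the alternatives.

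TNFRSF11B (osteoprotegerin), a secreted decoy for RANK ligand that also binds TRAIL, differed by 0.11 at 24 h (SE 0.10, adjusted p = 0.537), and by 0.03 without siRND3 array 3. TNFRSF12A (Fn14), the receptor for TWEAK, which signals through TRAFs, read between 14.14 and 14.37 on the 6 arrays at 24 h. Its difference was -0.02, with a 95% interval from -0.23 to 0.19, and its sign turned under 75th percentile scaling (0.02). LTBR, the lymphotoxin beta receptor, which activates the noncanonical NF-kB pathway, differed by -0.03 (95% interval -0.21 to 0.15). For these receptors the intervals leave room for changes smaller than those of TNFRSF1B and TNFRSF21.

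At 48 h, 4 of the 10 receptors were called lower in siRND3 cells and none higher: TNFRSF1B, TNFRSF10B, TNFRSF10D and TNFRSF21. Here 13.3% of 14805 genes were called lower and 14.3% higher. At an unadjusted p under 0.05 limma gave 6 lower and 0 higher, against 19.2% and 23.8% of all genes, and 12 of the 13 probes were lower by sign (44.8% of all probes). Each group was 1 array at this time, and the test assumed that it varied like the arrays at 24 h.

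**Figure D2:**
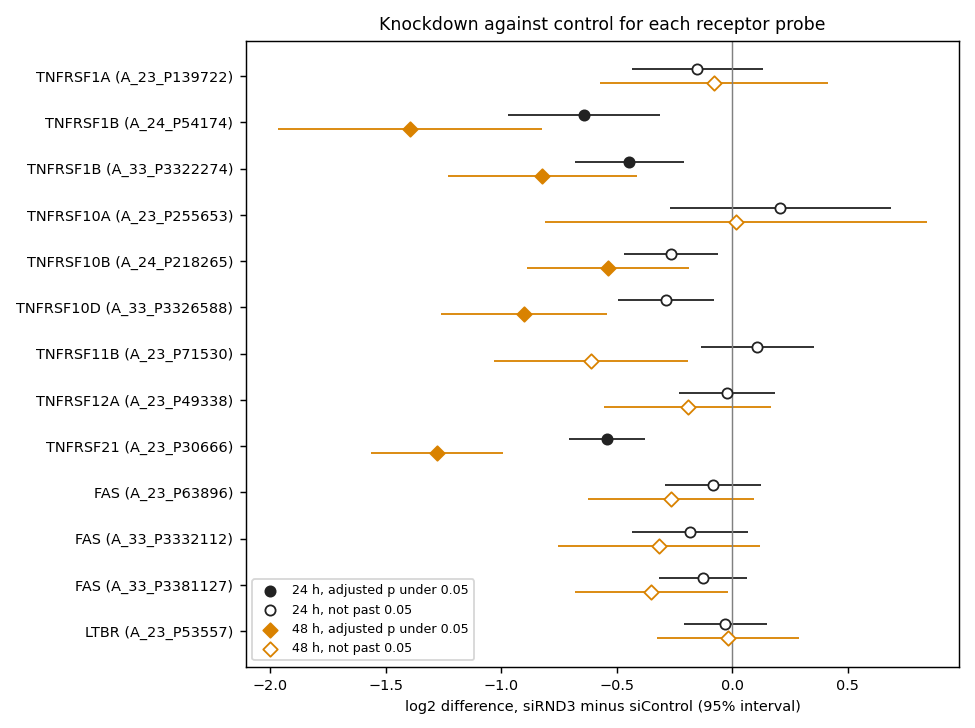
Log2 difference between siRND3 and siControl cells for each receptor probe, at 24 h (black circles) and 48 h (orange diamonds), with 95% intervals from limma. Filled symbols have an adjusted p under 0.05. The 48 h value lies left of the 24 h value for TNFRSF21 (-1.28 against -0.54), for both TNFRSF1B probes and for TNFRSF10D (-0.90 against -0.29), while TNFRSF1A, TNFRSF10A and LTBR stay near 0 at 48 h.

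TNFRSF21 read 11.50 in the siControl array and 10.22 in the siRND3 array at 48 h. That is 41.2% of control, a difference of -1.28 (SE 0.12, adjusted p = 0.00112). The TNFRSF1B probes read 8.25 against 6.85 and 7.14 against 6.32. Their differences were -1.39 (SE 0.24, adjusted p = 0.00976) and -0.82 (SE 0.17, adjusted p = 0.0192), or 38.0% and 56.6% of control. The second probe's difference was -0.49 after normexp correction (adjusted p = 0.0252). TNFRSF10D, the TRAIL decoy, read 11.69 against 10.79, a difference of -0.90 (SE 0.15, adjusted p = 0.00890). TNFRSF10B read 13.07 against 12.53, a difference of -0.54 (SE 0.15, adjusted p = 0.0471). Leaving out an array at 24 h cannot move a 48 h difference. It changes only the spread that the test takes from 24 h. In these fits the first 3 receptors kept their call. TNFRSF10B, close to the threshold, lost it without siControl array 1, 2 or 3 and without siRND3 array 1 or 3. The adjusted p was then 0.0586 to 0.0946 with the same difference. TNFRSF10B also lost its call with no filter on dim probes and with the replicate block.

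TNFRSF11B was the receptor nearest to the threshold among those not called at 48 h. It read 9.57 in siControl and 8.96 in siRND3 cells, a difference of -0.61 (SE 0.18, adjusted p = 0.0570), which passed under 6 alternatives, among them normexp (adjusted p = 0.0164) and leaving out siRND3 array 1 or 3 (adjusted p = 0.0437 and 0.0376). The 3 FAS probes differed by -0.27, -0.32 and -0.35 (adjusted p = 0.304, 0.311 and 0.140). TNFRSF12A differed by -0.19, TNFRSF1A by -0.08, LTBR by -0.02 and TNFRSF10A by 0.02, with adjusted p-values of 0.474 to 0.987. The last 2 of these were close enough to 0 that their sign turned under other processing.

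Whether the effect of knockdown differed between the times was tested directly. TNFRSF9, a receptor of the family outside those listed at the start, passed the threshold (-1.24, described below). Among those listed, TNFRSF21 was the single receptor past it, where 2.56% of all genes were called lower and 1.68% higher. The 48 h effect less the 24 h effect came to -0.74 on the log2 scale (SE 0.14, adjusted p = 0.0490). The call was marginal. It was lost when any of the 6 arrays at 24 h was left out (adjusted p = 0.0714 to 0.144, differences from -0.76 to -0.71) and under 75th percentile scaling (adjusted p = 0.0530). With single arrays left out the share of all genes called also fell, to between 0.0405% and 1.03% lower. The corresponding values were -0.75 and -0.38 for the TNFRSF1B probes (adjusted p = 0.214 and 0.380), -0.72 for TNFRSF11B (adjusted p = 0.126) and -0.61 for TNFRSF10D (adjusted p = 0.128). A larger effect at 48 h was therefore not shown for these 3 receptors. RND3 itself differed by 0.01 between the times (95% interval -0.45 to 0.46).

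The 2 treatments were also followed over time separately. In siControl cells 2 receptors, the decoys TNFRSF11B and TNFRSF10D, were higher at 48 h than at 24 h and none was lower, where 1.19% of all genes were called higher and 3.99% lower. At an unadjusted p under 0.05 limma gave 4 higher and 0 lower, against 9.93% and 16.4% of all genes. TNFRSF11B rose from 8.23, 8.09 and 8.20 at 24 h to 9.57 at 48 h, 2.64-fold (log2 change 1.40, SE 0.14, adjusted p = 0.0124). TNFRSF10D rose from a mean of 11.03 to 11.69, 1.58-fold (log2 change 0.66, SE 0.12, adjusted p = 0.0422). The TNFRSF10D call was lost without siControl array 1, 2 or 3 (adjusted p = 0.108 to 0.115) and without siRND3 array 2 or 3 (adjusted p = 0.0591 and 0.0608), and that of TNFRSF11B without siControl array 3 (adjusted p = 0.0526). In all, 8 of the 13 probes read higher in the siControl array at 48 h than in any siControl array at 24 h, against 39.5% of all probes tested. Those not called were probes of TNFRSF1A, TNFRSF1B, TNFRSF10A, TNFRSF10B and TNFRSF21, with adjusted p-values of 0.119 to 0.526.

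In siRND3 cells 1 receptor rose and 1 fell between 24 h and 48 h, where 3.61% of all genes were called higher and 9.19% lower. TNFRSF11B read 8.13, 8.26 and 8.45 at 24 h and 8.96 at 48 h, a 1.60-fold rise (log2 change 0.68, SE 0.14, adjusted p = 0.0358). TNFRSF21 fell from 10.82, 10.90 and 10.80 to 10.22 (log2 change -0.62, SE 0.10, adjusted p = 0.0146). In siControl cells TNFRSF21 changed by 0.12 (95% interval -0.12 to 0.35). TNFRSF10D, which rose in siControl cells, changed by 0.05 in siRND3 cells (95% interval -0.25 to 0.34). TNFRSF11B's rise was not called without siControl array 1, 2 or 3 or siRND3 array 1 or 2 (adjusted p = 0.0511 to 0.0765). TNFRSF21 kept its call in these fits. Only arrays at 24 h were left out, since each change rests on a single 48 h array. Both calls were lost with the replicate block.

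**Figure D3:**
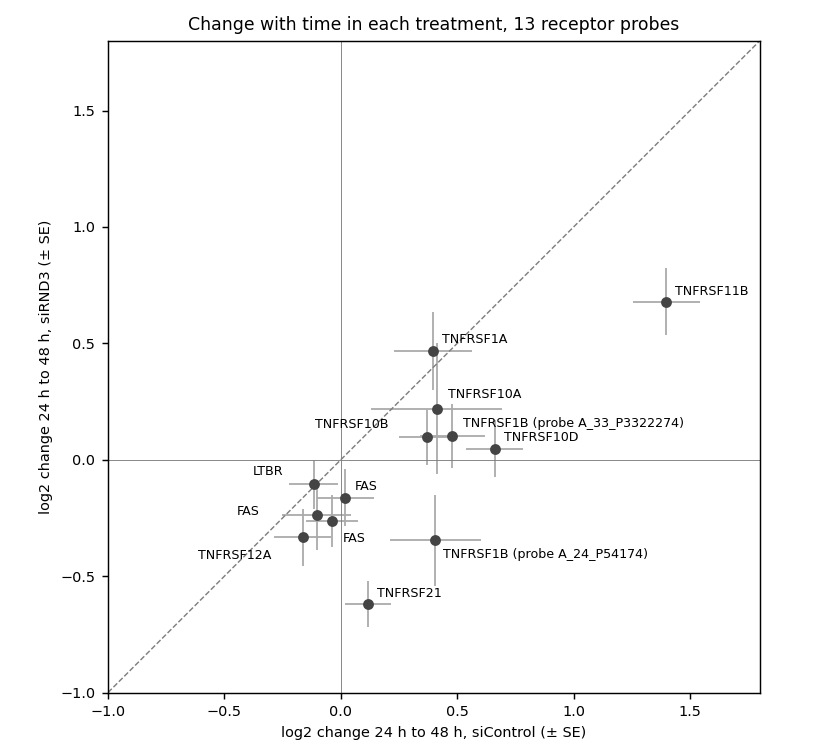
Log2 change from 24 h to 48 h of each receptor probe in siControl cells (horizontal axis) and in siRND3 cells (vertical axis), with bars of ± 1 SE from limma and a dashed line of equal change. TNFRSF11B (1.40 and 0.68) and TNFRSF10D (0.66 and 0.05) lie below the line, TNFRSF21 has a change near 0 in siControl cells and -0.62 in siRND3 cells, and TNFRSF1A lies close to the line.

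The remaining receptors of the family were mostly not called. Of 13 others tested, 1 was lower at 24 h (7.69%, against 9.26% of all genes) and none higher (against 7.16%). At an unadjusted p under 0.05 limma gave 2 and 3, against 16.6% and 19.7% of all genes. The called receptor was TNFRSF9 (4-1BB), a T cell costimulatory receptor, with a difference of -0.72 (SE 0.08, adjusted p = 0.00377). At 48 h, with 1 array a group, its difference was -1.96. Its 48 h effect less the 24 h effect was -1.24, also past the threshold. At 48 h the counts were 2 lower and 2 higher (15.4% each), near the 13.3% and 14.3% of all genes.

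Of 18 ligands on the array 10 were tested, of which 2 were lower and 2 higher at 24 h. That is 20% each, against 9.26% and 7.16% of all genes. At an unadjusted p under 0.05 limma gave 3 and 4, against 16.6% and 19.7% of all genes. TNF, the ligand of TNFRSF1A and TNFRSF1B, read 4.90 ± 0.13 (SD, n = 3) in siControl and 4.40 ± 0.19 in siRND3 cells, a difference of -0.50 (SE 0.12, adjusted p = 0.0486). The TNF probe was dim, and its call lay close to the threshold. TNFSF12 (TWEAK), which binds TNFRSF12A, differed by -0.79 on a probe (adjusted p = 0.00115) and by -0.25 on the other (adjusted p = 0.0971). The called probe was dim, at 5.04 in siControl and 4.25 in siRND3 cells, while the other read 9.21 and 8.96. At 48 h the called probe was not well above background in siRND3 cells. The other TNFSF12 probe, well above background on all 8 arrays, differed by -1.25 at 48 h, with 1 array a group. Its 48 h effect less the 24 h effect was -0.99. The higher ligands were TNFSF9 (0.44, adjusted p = 0.0345), which binds TNFRSF9, and EDA. EDA was called on 1 of its 2 probes (0.60 and 0.10), a dim one at 3.91 in siControl and 4.51 in siRND3 cells. TNFSF10 (TRAIL) differed by 0.14 (adjusted p = 0.544), and FASLG never rose well above background. At 48 h 4 ligands were lower and none higher (40% and 0%, against 13.3% and 14.3% of all genes). At an unadjusted p under 0.05 limma gave 4 and 1, against 19.2% and 23.8% of all genes.

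Among 26 adaptors and ubiquitin enzymes that act below the receptors, 5 were lower and 2 higher at 24 h. These are 19.2% and 7.69%, against 9.26% and 7.16% of all genes. At an unadjusted p under 0.05 limma gave 6 and 7, against 16.6% and 19.7% of all genes. BIRC3 (cIAP2), an NF-kB target that binds TRAF2, had the largest change of the list, from 6.80 ± 0.13 (SD, n = 3) to 4.01 ± 0.32, a difference of -2.78 (SE 0.17, adjusted p = 0.000385). At 48 h BIRC3 read 7.92 in siControl cells and was not well above background in siRND3 cells. The lowest signal well above background on that siRND3 array was 2.54, but TRAF1 lacked the flag there at 3.77. No bound on the fold is therefore given. TAB2, which links TRAFs to the kinase TAK1, differed by -0.86 and -0.64 on its probes, and MAP3K5 (ASK1) by -0.48 on the called probe. A second MAP3K5 probe varied too widely among the siControl arrays to be read (SD 4.26). TRAF2 (0.50) and TRAF6 (0.44) were higher.

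Of 10 caspases and death regulators, 3 were lower and 1 higher at 24 h (30% and 10%, against 9.26% and 7.16% of all genes). At an unadjusted p under 0.05 limma gave 5 and 1. CFLAR (c-FLIP), which blocks caspase-8 at death receptors, differed by -1.41 on a probe (adjusted p = 0.000213) and by -0.12 on the other (adjusted p = 0.534). The executioner caspase gene CASP6 differed by -1.31 and XIAP, a caspase inhibitor, by -0.39, while CASP10, an initiator caspase gene, differed by 0.36 on 1 of its 3 probes. Of the 11 genes for NF-kB subunits, their kinases and inhibitors, 2 were lower at 24 h (18.2%) and none higher (4 and 2 unadjusted). The lower genes were RELB (-0.65, adjusted p = 0.00399) and NFKBIA (-0.32, adjusted p = 0.0409). Of 7 genes for receptor shedding and its control, limma called none at 24 h, with 1 lower and 2 higher at an unadjusted p under 0.05. The unadjusted shares over all genes at 24 h were 16.6% lower and 19.7% higher. The list medians at 24 h lay between -0.08 and 0.12, beside 0.04 over all genes. At 48 h the lower and higher counts were 5 and 5 for adaptors (19.2% each) and 5 and 1 for caspases (50% and 10%). They were 4 and 1 for the NF-kB list (36.4% and 9.09%) and 1 and 0 for shedding (14.3% and 0%). Over all genes the shares were 13.3% and 14.3%.

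**Figure D4:**
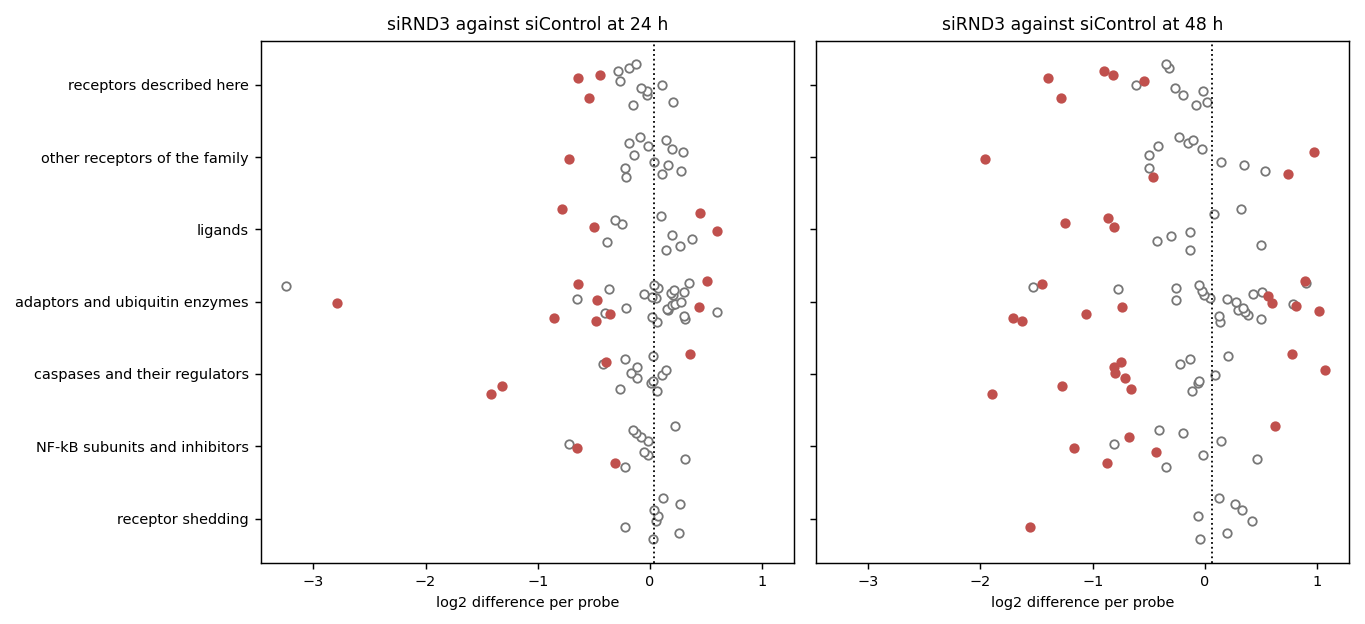
Log2 difference between siRND3 and siControl cells for each probe of the receptors and of 6 lists of pathway genes, at 24 h (left) and 48 h (right, where only probes well above background on all 8 arrays are drawn). Red points have an adjusted p under 0.05, vertical position within a row carries no meaning, and the dotted line is the median of all genes. BIRC3 at -2.78 is the lowest called point at 24 h, and the called probes in the top row are all on the lower side at both times.

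Marker genes were read beside these results. Over all genes, 9.26% were called lower and 7.16% higher at 24 h. At an unadjusted p under 0.05 these shares were 16.6% and 19.7%. Of 6 glial and U87 markers tested, 2 were lower (OLIG2 and CD44) and 1 higher (NES) at 24 h, and the mean log2 level of their 7 probes was 10.49 to 10.54 in siControl and 10.20 to 10.33 in siRND3 cells. Of 12 markers of other cell types tested, 2 were lower (CSF1R and PECAM1) and none higher (2 and 2 unadjusted). The mean log2 level of these 14 probes was 6.50 to 6.61 in siControl and 6.50 to 6.59 in siRND3 cells at 24 h, so the groups overlapped. The neuronal marker RBFOX3 stayed below that flag on all arrays, but 12 of these 14 genes on the array had a probe that was on all 8, in a cell line, so the background flag alone does not establish expression. The part of the marker changes in the receptor results was not tested.

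The probe whose pattern was compared with all others was A_24_P54174 of TNFRSF1B, the called receptor probe with the largest difference at 24 h. Over the 8 arrays and 18118 probes of other genes, the most similar were probes of PLXND1 (Pearson r = 0.989), METRNL (0.988) and MXRA7 (0.986). Their differences at 24 h were -0.36, -0.23 and -0.37, and at 48 h -0.69, -0.43 and -0.88. In all, 654 of these 18118 probes had an r above 0.9 with TNFRSF1B, so a high r was not particular to the probes named. The 8 arrays share 1 slide and a treatment difference.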

How the data were processed

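U87 cells were profiled on 8x60k Agilent arrays after labelling with Cy3. The authors deposited scanner output of Agilent Feature Extraction 10.7.3.1, whose processed signal is a background-subtracted intensity on a linear scale, and a table of log2 values, which follow the spot medians in rank order and were used as an alternative. That table's column medians were 6.579 to 6.588; its centring is not stated. Values were taken from the processed signal: log2, quantile normalisation over all 58717 non-control spots (the normalisation named in the methods), outlier spots (0.364% to 0.530%) set to missing, and spots of a probe averaged. No spot was saturated, and 68.3% to 70.7% of probes were well above background (at least 50% of the probe's spots carrying the flag). The precision is limited by the number of arrays. Tested probes carried the flag on each of the 3 arrays of at least 1 group at 24 h (28759 probes, 14805 genes); 3350 were called at 24 h. Genes were named from the file's gene name and RefSeq accession.

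limma 3.58.1 in R 4.3.3 was fitted with Benjamini-Hochberg adjustment over all probes, two-sided, at a threshold of 0.05: on the 6 arrays at 24 h for the knockdown, and on all 8 arrays with 4 group means for the other 4 comparisons, with the lone arrays at 48 h taken to be as variable as those at 24 h. An exact permutation test of 3 against 3 arrays cannot go below p = 0.1 and was not used for calls. Scripts were tested on simulated data. Alternatives were 75th percentile scaling, normexp (offset 50, on spot medians, since the files hold no spot means), the authors' log2 values and other filters. Others were SAM at 5% FDR over all 20 assignments, a replicate block, probe means per gene and leaving out each array at 24 h. The members and gene lists were chosen with earlier results of these data known. Named were all 10 receptors with every probe, RND3, TNF, TNFSF10, FASLG and TNFSF12, for each list up to 3 genes per direction with the largest called change at 24 h, and the 3 probes most like the leading receptor probe. RefSeq promoters (GRCh38.p14) were searched on both strands. The array's own annotation is on another build, so no probe coordinates are given. 1 gene of the caspase list is not reported here.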

Additional observations from a re-analysis of the deposited data

Results flagged for a closer look

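The effect of RND3 knockdown on TNFRSF21 differed between the 2 times in the test of the difference itself: the 48 h effect less the 24 h effect came to -0.74 on the log2 scale (SE 0.14, adjusted p = 0.0490, limma). The 24 h effect rested on 3 arrays a group and the 48 h effect on 1 array a group. Over the alternatives the adjusted p ran from 0.0146 to 0.159. The TNFRSF21 call was lost when any single array at 24 h was left out, under 75th percentile scaling and with the replicate block. A cause was not tested.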

How the results depend on the processing

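The counts of receptors called were recomputed under each alternative. Single arrays left out were always arrays at 24 h. The share of all genes called in the same direction moved with them and is given in brackets. The count for the knockdown at 24 h was 2 lower (9.26%), with 4 after normexp (11%), 3 with probe means (11%), 1 with no filter on dim probes (5.5%), 1 with the replicate block (5.57%) and 1 to 2 when single arrays were left out (4.78% to 7.73%). At 48 h it was 4 lower (13.3%) and stayed at 3 to 5 (9.71% to 14.4%), with 3 to 4 when single arrays were left out (10.9% to 13.5%). The count for the difference between the times was 1 lower (2.56%), with 0 under 75th percentile scaling (2.58%), 0 with the replicate block (0%) and 0 when any single array was left out (0.0405% to 1.03%). For siControl cells over time it was 2 higher (1.19%), with 1 under 75th percentile scaling (1.3%), 1 with no filter (1.52%), 0 with the block (0%) and 0 to 2 when single arrays were left out (0.108% to 0.986%). For siRND3 cells over time it was 1 lower and 1 higher (9.19% and 3.61%), 2 in all, with 3 after normexp, where TNFRSF1A was also higher (10.2% and 6.74%), 1 with no filter (5.64% and 2.95%), 0 with the block (0.00675% and 0%) and 1 to 2 when single arrays were left out (5.48% to 8.26% and 1.59% to 2.97%). With the block, or with single arrays left out, a count of 0 is therefore not particular to the receptors. The cause was not tested; with no filter more probes were tested.

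Values near 0 changed sign. TNFRSF12A at 24 h was 0.024 under 75th percentile scaling and -0.070 to 0.043 when single arrays were left out. TNFRSF10A at 48 h was -0.0031 under 75th percentile scaling, -0.015 after normexp and -0.019 with the authors' log2 values, and LTBR was 0.018 after normexp and 0.011 with the authors' values. For the difference between the times, LTBR was -0.011 under 75th percentile scaling, and with single arrays left out LTBR ran from -0.016 to 0.047, TNFRSF1A from -0.048 to 0.167 and RND3 from -0.053 to 0.094. TNFRSF10D over time in siRND3 cells was -0.029 with the replicate block.

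Replicate numbers, which give the slide column at 24 h (both 48 h arrays lie in column 4), did not pair the samples: deviations from the group means of same-numbered arrays correlated at 0.0020, -0.012 and 0.129. With the block, the called TNFRSF1B probes had adjusted p-values of 0.0980 and 0.0775 at 24 h. The median difference of all probes at 24 h was 0.05, and 0.08, 0.03 and 0.04 under 75th percentile scaling, normexp and the authors' values. Dim receptors are limited by their signal over background, TNFRSF10A most of all.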
